A study of Mus musculus with 4 samples.

Results

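DNA methylation of wild-type mature B cells was compared with that of wild-type haematopoietic stem and progenitor cells (HSPCs) over 1 kb tiles of the 19 mouse autosomes. A tile entered when both libraries had at least 10 summed reads over CpGs covered by fewer than 50 reads in each. This left 181653 tiles of the 421973 autosomal tiles with a covered CpG in any of the 4 libraries of the study, or 43.0%. The study profiled sorted blood cells by reduced representation bisulfite sequencing (RRBS), in which enzymes cut DNA at CpG-containing sites and bisulfite converts unmethylated cytosines before sequencing. Wild-type CBAxC57BL/6J mice gave B cells (B220+, peripheral blood) and HSPCs (Sca1+Lin-, bone marrow), and both populations were also taken from Sca1-BCL6Δ mice on that background. Sca1-BCL6Δ mice carry a Bcl6 cDNA driven by the Sca1 promoter that Cre recombinase removes once Cd79a is expressed. Each of the 4 libraries was made from a pool of 6 to 9 mice, per the labels. There was therefore no replicate of any condition, and the ages of the mice are not given in the labels. The 2 cell types also came from different organs, and no expressed marker could be read from DNA, so the sort itself could not be checked here.

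CpG methylation is copied to the daughter strand at each division by Dnmt1 and its partner Uhrf1, is set down anew by Dnmt3a and Dnmt3b, and is removed through oxidation by the Tet enzymes. Most CpGs outside CpG-dense promoters are methylated in blood cells, whereas CpG-dense promoters of active and inducible genes are mostly unmethylated. Regulatory elements that open in a lineage, such as enhancers, commonly lose methylation as stem cells commit to it.

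Promoter sequences of 4 genes stand for the patterns described below. They are the 250 bases before the gene's start from RefSeq (GRCm38.p6), placed on mm9 by the spacing of their covered CpGs. Capitals mark CpGs that were covered in both libraries. Serhl and Fam120b carry the promoter differences that passed the test, Mael is a fully methylated germline promoter in both cell types, and Gata2 is a stem cell promoter with a low level over its whole window in both, although the 3 CpGs in capitals were partly methylated in B cells. The mm9 windows are chr15:82930385-82930634 for Serhl (+ strand), chr17:15532916-15533165 for Fam120b (+), chr1:168168876-168169125 for Mael (-) and chr6:88148408-88148657 for Gata2 (+).
Serhl: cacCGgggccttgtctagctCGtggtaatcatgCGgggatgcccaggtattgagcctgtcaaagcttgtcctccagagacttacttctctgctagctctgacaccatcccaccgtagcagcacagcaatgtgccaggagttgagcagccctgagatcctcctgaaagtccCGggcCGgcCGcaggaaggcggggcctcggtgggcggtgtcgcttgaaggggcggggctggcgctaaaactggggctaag
Fam120b: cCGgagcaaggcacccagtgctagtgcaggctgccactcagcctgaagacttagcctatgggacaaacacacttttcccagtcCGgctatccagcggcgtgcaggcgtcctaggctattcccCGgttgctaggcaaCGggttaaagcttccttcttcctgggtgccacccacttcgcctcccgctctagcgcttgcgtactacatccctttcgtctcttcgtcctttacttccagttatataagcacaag
Mael: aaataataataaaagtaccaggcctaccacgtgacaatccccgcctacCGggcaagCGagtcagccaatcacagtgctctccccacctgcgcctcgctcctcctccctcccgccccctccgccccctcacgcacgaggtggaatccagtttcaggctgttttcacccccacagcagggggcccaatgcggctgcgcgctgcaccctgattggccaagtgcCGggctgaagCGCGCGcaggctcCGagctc
Gata2: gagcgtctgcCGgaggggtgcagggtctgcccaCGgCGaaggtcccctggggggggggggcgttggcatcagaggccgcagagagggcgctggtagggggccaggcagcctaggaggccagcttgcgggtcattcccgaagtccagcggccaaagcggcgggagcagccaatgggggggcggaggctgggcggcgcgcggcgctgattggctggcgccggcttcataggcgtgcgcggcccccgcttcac

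Autosomal CpG calls (1 read at 1 CpG) numbered 9004756 in the HSPC and 15164556 in the B cell library, or 7.51 and 11 reads per covered CpG. The median tile had 3 CpGs, with 21 calls in HSPCs and 33 in B cells. Every test below compares the reads of 2 libraries, not conditions, and its p carries no variation between animals. Confidence intervals and the limits allowed by a count of 0 cover counting error only, neighbouring CpGs share reads, and no removal of PCR duplicates was recorded.

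B cells had more methylation than HSPCs over most of the covered genome. The mean tile level was 64.4% in HSPCs and 76.6% in B cells, and 74.7% of tiles were higher in B cells, with a median difference of 10.4 percentage points. That difference lay in tiles with few CpGs. In the 161149 CpG-poor tiles (fewer than 10 CpGs covered in any library) the mean was 69.7% in HSPCs and 83.5% in B cells. In the 13880 tiles of medium density (10 to 24 CpGs) the means were 28.0% and 28.5%. In the 6624 CpG-dense tiles (25 or more CpGs) the order was opposite, with 10.9% in HSPCs and 9.07% in B cells.

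To separate a shift of the whole library from changes at single places, tiles were also classed by level. The class came from the pooled reads of the Sca1-BCL6Δ libraries, which were not among those compared, and 153291 tiles had the 10 reads needed there. In CpG-poor tiles of the 95-100% class, HSPCs had 81.8% (SE 0.13 over 19 autosomes) and B cells 96.3% (SE 0.027). B cells were thus 14.5 points higher (SE 0.12), and the difference was between 13.6 and 15.5 on every one of the 19 autosomes. The 80-95% class gave the widest gap, 16.6 points (SE 0.11), from 74.8% in HSPCs to 91.4% in B cells. It was 14 points (SE 0.21) in the 60-80% class and 5.99 (SE 0.36) in the 40-60% class. At lower levels the sign turned. B cells were lower by -2.56 points (SE 0.14) in the 5-20% class and by -2.58 points (SE 0.32) in the 0-5% class, and on 0 of 19 autosomes were they higher in either class. HSPCs therefore lay nearer to the middle of the scale at both ends.

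The same course was seen at medium and high density, with smaller gaps at the methylated end. In the 95-100% class the difference was 9.65 points (SE 0.21) at medium density, from 87.4% to 97.1%. In the 25 dense tiles of that class it was 6.90 points (SE 1.1), from 91.1% to 98.0%. Dense tiles of 0-5%, the density and level at which unmethylated CpG islands lie, had 7.78% (SE 0.086) in HSPCs and 6.21% (SE 0.063) in B cells. Splitting tiles more finely showed a gradient. Within the 95-100% class the difference was 16.8 points in tiles of 1 to 2 CpGs, 14.8 at 3 to 4, 12.7 at 5 to 9, 10.1 at 10 to 14, 7.92 at 15 to 24 and 6.58 at 25 to 39. HSPC levels carried the gradient, rising from 79.2% to 91.4%, while B cells stayed between 96.0% and 97.9%. Depth made less difference. CpG-poor tiles of the 95-100% class differed by 14.2 points where HSPCs had under 5 reads per CpG and by 14.5 points at 10 to 20 reads, although the 1060 tiles at 20 reads or more had 15.9.

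**Figure D1:**
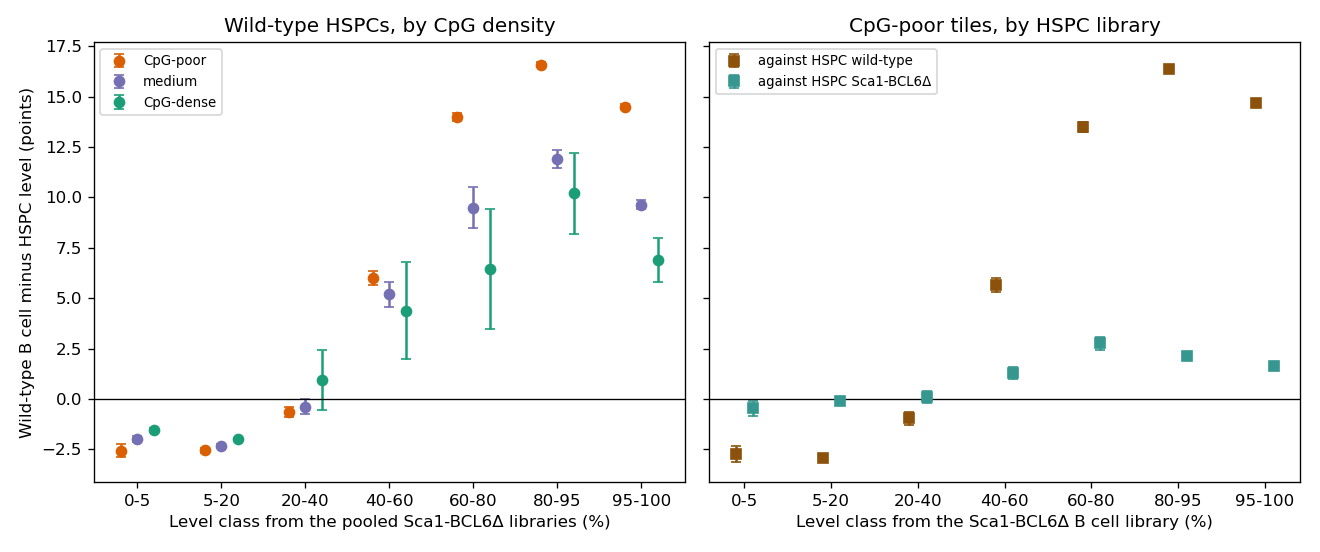
Wild-type B cell minus HSPC methylation level in percentage points (vertical axis) by level class (horizontal axis), with points for read-weighted class differences and bars for the SE over autosomes. On the left, colours are CpG densities; on the right, CpG-poor tiles are compared with each HSPC library, and only the wild-type HSPC library gives gaps of 13.5 to 16.4 points above 60%.

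**Figure D2:**
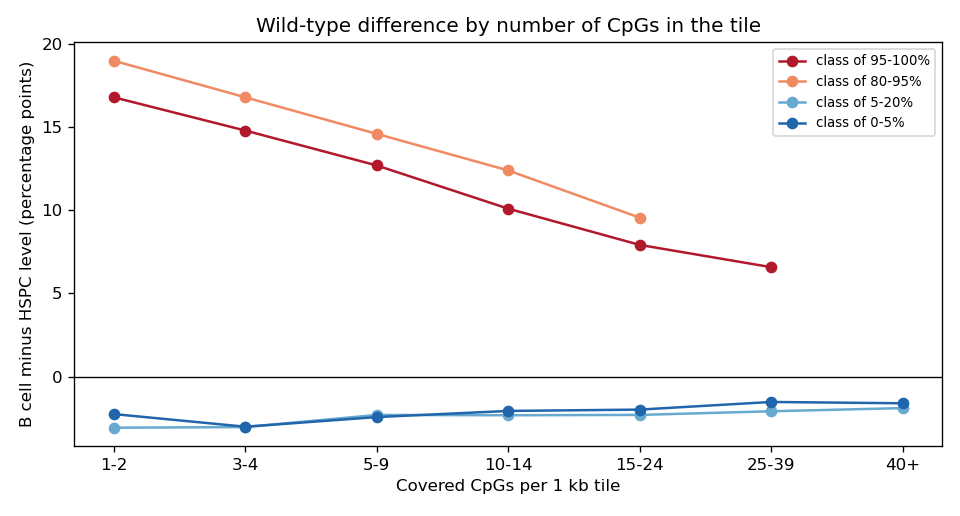
Wild-type B cell minus HSPC level in percentage points against the number of covered CpGs in the 1 kb tile, 1 line per level class. In the 95-100% class the difference falls from 16.8 to 6.58 points with more CpGs, and the 0-5% and 5-20% classes stay below 0.

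Most of the gap belonged to the wild-type HSPC library rather than to both HSPC libraries. With classes set from the Sca1-BCL6Δ B cell library alone, wild-type B cells exceeded wild-type HSPCs by 14.7 points (SE 0.13) in CpG-poor tiles of 95-100%. Set against the Sca1-BCL6Δ HSPC library in the same way, they were higher by 1.63 points (SE 0.066), with 94.5% in those HSPCs and 96.1% in B cells. At 80-95% the values were 16.4 (SE 0.12) and 2.15 points (SE 0.077), and at 60-80% they were 13.5 (SE 0.23) and 2.75 (SE 0.30). At 5-20% wild-type HSPCs gave -2.96 points (SE 0.16) and Sca1-BCL6Δ HSPCs -0.0944 (SE 0.17). These comparisons share the B cell library, and with 1 library each a property of wild-type HSPCs and one of that library's preparation cannot be told apart.

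Reads with several CpGs showed where in the molecules the lower methylation lay. Among reads with at least 4 CpGs in CpG-poor tiles of the 95-100% class, 75% were methylated at every CpG in HSPCs (Wilson 95% interval 74.5 to 75.6, 21643 reads) and 91.2% in B cells (90.9 to 91.5, 34353 reads). Mixed reads made up 20.3% in HSPCs and 8.58% in B cells. Reads with no methylated CpG made up 4.68% (4.40 to 4.97) and 0.236% (0.190 to 0.293). Both kinds were thus more common in HSPCs. Dense tiles of the same class had 18.8% mixed reads in HSPCs and 7.97% in B cells. In dense tiles of 0-5% the HSPC library held more fully methylated reads, 3.77% (3.63 to 3.91) against 2.43% (2.34 to 2.52). Unmethylated reads made up 80% there in HSPCs and 82.2% in B cells.

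The number of CpGs in the read went along with the size of the gap within the CpG-poor class. Tiles of that class still differ in density, and their gap at 95-100% fell from 16.8 points at 1 to 2 CpGs to 12.7 at 5 to 9. CpGs per read and CpGs per tile were therefore not separated. In CpG-poor tiles of 95-100%, reads with 1 CpG were methylated at 78.8% in HSPCs and 95.4% in B cells. Reads with 3 CpGs had 85.5% and 97.1%. With 6 or more CpGs the levels were 90.5% and 98.1%. At the unmethylated end the level fell with the CpGs per read in both libraries, in dense tiles of 0-5% from 22.8% at 1 CpG to 5.23% at 6 or more in HSPCs, and from 20.3% to 4.25% in B cells.

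**Figure D3:**
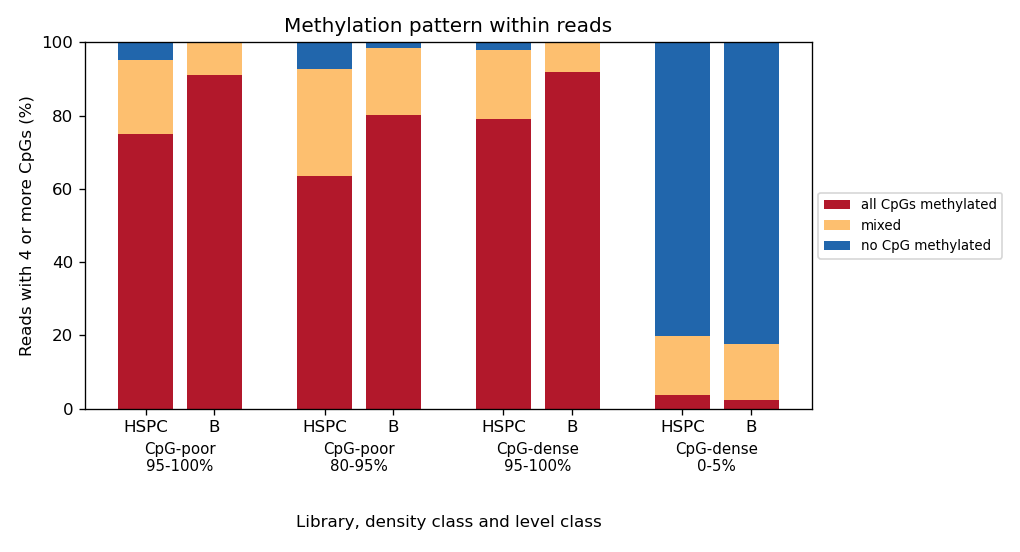
Percent of reads with 4 or more CpGs that are methylated at all, some or none of their CpGs (stacked colours, vertical axis), for HSPC and B cell libraries in 4 classes of density and level. In CpG-poor tiles of 95-100% the fully methylated share is 75% in HSPCs and 91.2% in B cells.

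Before the shift was removed, 9071 tiles were called higher in B cells (4.99% of 181653) and 403 lower (0.222%). A call needed a two-sided Fisher exact test on CpGs more than 50 bp apart with a Benjamini-Hochberg adjusted p under 0.05, and a difference of 20 points. Median levels at the higher tiles were 53.8% (HSPCs) and 97.5% (B cells), and 8873 of them were CpG-poor. At the lower tiles they were 63.6% and 13.6%. In the Sca1-BCL6Δ libraries, at 4396 higher tiles with 10 reads in each, the median was 92.9% for HSPCs and 95.2% for B cells. Of these tiles 324 were higher there by 20 points or more. Over all 92154 classed tiles with such reads, 5.49% were higher by that much.

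Taking the difference of each density and level class out left few called tiles. A local difference, the tile's difference minus that of its class, was called at 29 tiles higher in B cells (0.0189% of 153291) and 91 lower (0.0594%). Before the removal, the same classed tiles gave 7723 higher (5.04%) and 360 lower (0.235%). Those 7723 tiles still had a median local difference of 25.1 points, and the 277 lower ones without a local call had -37.1 points. In simulated data the local test called 4.5% of 200 tiles moved by 30 points. A lost call therefore does not show that a tile's difference was only that of its class. Of the local calls, 28 of 29 higher and 83 of 91 lower had also been called before. CpG-poor tiles held 26 higher (0.0196% of that class) and 85 lower (0.064%), medium tiles 3 (0.0217%) and 6 (0.0434%), and dense tiles 0 and 0 (0.0%) by this test. The lower tiles lay on all 19 autosomes, went from a median of 78.8% (HSPCs) to one of 24.5% (B cells), and 44 of 91 had 80% or more in HSPCs. At the higher tiles the medians were 22.7% and 94.7%. No 2 adjacent tiles were called, and 0 of the 3 pairs within 100 kb had the same direction. With so few calls this does not show how far a difference extends, and levels of neighbouring tiles were not compared. The counts moved with the test. They ranged from 1 to 978 higher and from 20 to 1066 lower over the settings tried, and with the Sca1-BCL6Δ HSPC library in place of the wild-type one 0 of the 19 higher tiles still tested and 15 of the 63 lower ones were called.

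The Sca1-BCL6Δ mice gave levels for the same tiles in libraries that did not make the calls, although the level classes had used those libraries pooled over both cell types. At 62 of the 91 lower tiles both had 10 reads, and the median there was 78.4% for HSPCs and 34.9% for B cells of these mice. B cells were lower at 52 and higher at 10 of these 62, where 39.4% of all classed tiles were lower. They were lower by at least 20 points at 36 of 62, against 3.91% of all classed tiles. The shares of all classed tiles given here are not matched for level. The CpG-poor 95-100% class held 55866 of the 153291 classed tiles but 0 of the 91 lower tiles. At 19 higher tiles the medians were 71.4% and 85.7%. B cells were higher at 11 of these 19, where 46.4% of all classed tiles were higher, and 6 of 19 were higher by 20 points or more, against 5.49% of all classed tiles. The median difference was -29.9 points at the lower and 8.33 points at the higher tiles. Local lower tiles were thus mostly lower in Sca1-BCL6Δ B cells as well, while 6 of the 19 higher tiles were lower there, where 39.4% of all classed tiles were. Which tiles kept a call depended on their Sca1-BCL6Δ level, through the class. Before the shift was removed, 257 tiles called lower had such reads, with Sca1-BCL6Δ medians of 30.0% for HSPCs and 16.7% for B cells. Sca1-BCL6Δ B cells were lower at 175 of these, higher at 79, and lower by 20 points or more at 97.

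**Figure D4:**
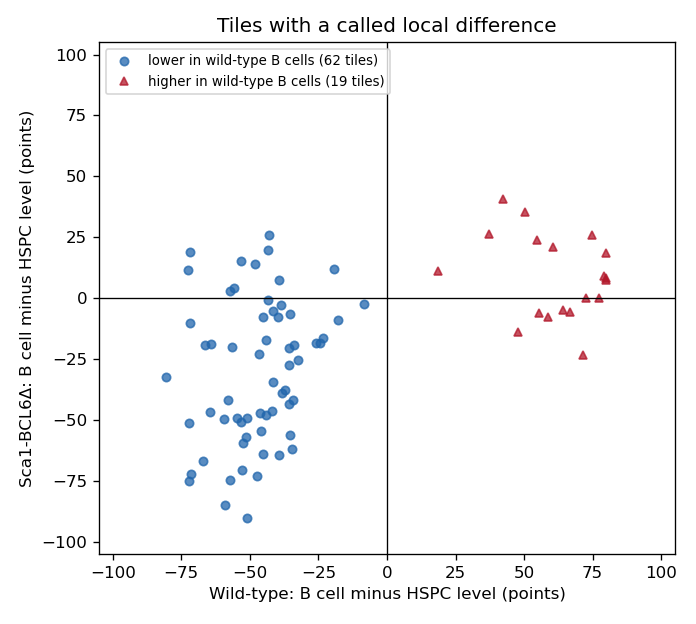
B cell minus HSPC level in Sca1-BCL6Δ libraries (vertical axis, percentage points) against that in wild-type libraries (horizontal axis), 1 point per tile with a called local difference and 10 reads in all libraries. Of 62 tiles lower in wild-type B cells 52 lie below 0 on the vertical axis, and of 19 higher tiles 11 lie above it.

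The lower tiles with the largest local differences each rested on 2 to 5 CpGs. At chr6:54707001-54708000, 18 of 20 calls were methylated in HSPCs (90.0%, Wilson 95% interval 69.9 to 97.2) and 11 of 65 in B cells (16.9%, 9.72 to 27.8). Its local difference was -89.7 points (Fisher adjusted p = 3.4e-05). At chr6:88727001-88728000, 22 of 22 calls were methylated in HSPCs (100%, 85.1 to 100) and 5 of 18 in B cells (27.8%, 12.5 to 50.9), and the Sca1-BCL6Δ libraries had 100% and 25% (exact local adjusted p = 9.3e-05). The intervals of the wild-type libraries did not overlap at either tile, which is no further evidence because both were picked for their large differences. The largest local difference, -94.4 points at chr5:144763001-144764000, went from 15 of 16 calls (93.8%) to 4 of 30 (13.3%), with 78.3% and 45.8% in Sca1-BCL6Δ libraries (exact local adjusted p = 0.045).

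Near Rmi1, a subunit of a complex that resolves recombination intermediates, lay another lower tile. At chr13:58508001-58509000, 4.54 kb downstream of the placed Rmi1 promoter, HSPCs had 18 of 20 methylated calls (90.0%) and B cells 1 of 11 (9.09%, exact local adjusted p = 0.0042). A tile at chr4:108552001-108553000 had 17 of 17 (100%) and 21 of 63 (33.3%), and one on chromosome 18 had 95.5% and 14.6%. Sca1-BCL6Δ reads were under 10 in at least 1 library at these 3 tiles, so no level is given.

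Higher tiles rested on as few calls. At chr9:35306001-35307000, 1 of 15 calls was methylated in HSPCs (6.67%, 1.19 to 29.8) and 27 of 27 in B cells (100%, 87.5 to 100), a local difference of 78.8 points (exact adjusted p = 0.0091). At chr11:119371001-119372000, which has 1 CpG, 0 of 10 calls were methylated in HSPCs, which allows a level of up to 30.0%, and 13 of 14 in B cells (92.9%). At chr11:95045001-95046000 the levels were 16.7% (3 of 18) and 94.7% (36 of 38). At chr7:150504001-150505000 they were 5.88% and 85.7%, with 63.6% and 82.4% in Sca1-BCL6Δ libraries. At chr8:36649001-36650000 they were 20% and 100%, with 91.7% and 100% in Sca1-BCL6Δ libraries. There the Sca1-BCL6Δ HSPC library was far above the wild-type one, while the B cell libraries were close.

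At chr10:124621001-124622000 the genotypes went opposite ways. Wild-type HSPCs had 0 of 17 methylated calls, which allows up to 17.6%, and wild-type B cells had 71.4% (15 of 21). Of the Sca1-BCL6Δ libraries, that of HSPCs had 50% and that of B cells 26.7%.

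Some of the largest differences no longer passed once the class shift was taken out. At chr9:51912001-51913000, 0 of 11 calls were methylated in HSPCs, which allows up to 27.3%, and 11 of 11 in B cells (exact adjusted p = 0.0013 before, 0.12 after). At chr11:95103001-95104000 HSPCs had 0 of 10 and B cells 23 of 24 (95.8%), whereas both Sca1-BCL6Δ libraries had 100% (0.028 before, 0.53 after, both adjusted). At chr7:129697001-129698000 the levels were 0% of 11 calls and 94.1% of 17. Among lower tiles, chr11:11760001-11761000 had 92.9% in HSPCs and 12.5% in B cells, with 90.0% and 6.25% in Sca1-BCL6Δ libraries (0.024 before, 0.20 after, both adjusted). Chr2:136212001-136213000 had 88.2% and 0 of 51 calls, which allows up to 5.88%, and chr9:44850001-44851000 had 80% and 3.45%. At these last tiles the Sca1-BCL6Δ levels were 21.1% and 25%, and 50% and 60.0%, in HSPCs and B cells. The class shift was only -0.658 points at the lower tiles of chromosomes 11 and 2, where the local differences were -79.7 and -87.6 points. At the lower tile of chromosome 9 it was 5.99 points, and the local difference was -82.5 points against -76.6 before. Adjusted p after the removal was computed anew over the 153291 classed tiles.

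Genes near the local differences could be named only through promoters placed on mm9, which numbered 8464 windows of 7529 autosomal genes. A placed promoter lay within 20 kb of 39.3% of the local lower tiles, 20.7% of the local higher tiles and 25.5% of all classed tiles, counted on chromosomes with a placed promoter. Within 5 kb the shares were 10.1%, 3.45% and 12.5%. Near the 4 placed genes of the B cell identity list lay 42 tiles, of which 1 was called lower and 1 higher before the shift was taken out, and only the lower one, near Irf8, after. The higher one, at chr13:52665001-52666000 near Syk, a kinase of B cell receptor signalling, had 69.4% in HSPCs and 96.8% in B cells, and 94.4% and 100% in Sca1-BCL6Δ libraries (exact local adjusted p = 1). Over all classed tiles 5.04% were called higher and 0.235% lower before the shift was taken out, and 0.0189% and 0.0594% after. A count of 1 in each direction is too small to set the 42 tiles apart. The next tiles were picked after their values were seen, for genes known in lymphocytes. At chr8:123271001-123272000, 11.2 kb downstream of the promoter of Irf8, a transcription factor of B and myeloid cells, HSPCs had 65.7% (23 of 35) and B cells 20.6% (14 of 68). In Sca1-BCL6Δ libraries the levels were 90.0% and 25.9% (exact local adjusted p = 0.0021). At chr8:74844001-74845000, 1.54 kb downstream of the promoter of Klf2, which keeps lymphocytes quiescent and guides their traffic, they were 62.7% and 18.5%, and 79.5% and 31.7% in Sca1-BCL6Δ libraries (exact local adjusted p = 0.00014). Near Ltb, which encodes lymphotoxin beta, the tile chr17:35342001-35343000 lay 11 kb downstream and had 52.1% and 16.5%, and 74.3% and 18.2% in Sca1-BCL6Δ libraries. All 3 were lower in B cells of both genotypes. The tile chr11:11596001-11597000, 10.6 kb downstream of Ikzf1, the gene of the lymphoid factor Ikaros, was lower in wild-type but not in Sca1-BCL6Δ B cells. There the levels were 84.6% and 45.2% in wild-type and 81.8% and 89.5% in Sca1-BCL6Δ libraries.

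Stretches between neighbouring placed promoters with at most 20 coding genes were then assigned to the listed genes they hold, a step added after the values were seen. Stretches with a gene of the B cell identity list held 1.40% of 137758 tiles and 6 of the 85 local lower tiles among them, or 7.06%. In those stretches 0.310% of tiles were called lower, against 0.0617% over all stretches. They held 0 of 27 higher tiles, where 0.0196% of tiles over all stretches were called higher, so that among their 1935 tiles a count of 0 does not set them apart. The same holds for the 1606 tiles of the stem and progenitor cell list, with 0 lower and 0 higher local calls. Stretches of the T and NK cell list held 1 lower call (0.0967% of their 1034 tiles) and those of the imprinted list 1 higher call (0.207% of 484).

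Besides the Irf8 tile, these tiles lie in stretches with several genes and are not assigned to one. In the stretch of Cd22, an inhibitory receptor of B cells, chr7:31664001-31665000 had 68.8% in HSPCs and 22.7% in B cells, and 76.0% and 21.7% in Sca1-BCL6Δ libraries. In that of Spib, an ETS factor of B cells, chr7:51788001-51789000 had 80% and 13.8%, and 81.8% and 62.5%. In that of Swap70, a signalling protein of activated B cells, chr7:117873001-117874000 had 98.0% and 56.6%, and 91.2% and 86.0%. In that of Cd79b, a signalling chain of the B cell receptor, chr11:106166001-106167000 had 83.3% and 20%. The stretch of Igll1 and Vpreb1, which encode the surrogate light chain of B cell precursors, had 58.3% and 10.3% at chr16:16863001-16864000. Sca1-BCL6Δ reads were under 10 in at least 1 library at both of these.

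Tiles around stem and progenitor cell genes were called about as often as tiles elsewhere. Within 20 kb of the 10 placed promoters of that list lay 112 tiles, of which 7 were called higher and 0 lower before the shift was taken out, and 0 after. The percent called over all classed tiles was 5.04 and 0.235 before, and 0.0189 and 0.0594 after, so neither count sets these tiles apart. Near Meis1, a homeobox partner that sustains stem cells, chr11:18899001-18900000 had 23.5% in HSPCs and 73.9% in B cells, but 72.7% and 83.3% in Sca1-BCL6Δ libraries (exact local adjusted p = 0.36). Near Gata2, a zinc finger factor of stem cells, a dense tile at chr6:88140001-88141000 had 61.8% and 90.5%, and 92.9% and 82.7% (exact local adjusted p = 0.65). Near Zfpm1, which encodes a Gata cofactor, chr8:124820001-124821000 had 53.3% and 89.3%, and 16.7% and 96.3% (exact local adjusted p = 0.90). B cells were higher in both genotypes at the Meis1 and Zfpm1 tiles, and at the Gata2 tile in wild-type but not in Sca1-BCL6Δ mice. At the Meis1 tile the Sca1-BCL6Δ difference was only 10.6 points, on 22 calls in HSPCs and 12 in B cells, and was not tested. Of 45 tiles near the placed T and NK cell genes 5 were called higher and 1 lower before and 0 after, 4 of the higher ones near Tcf7, a T cell factor, where chr11:52098001-52099000 had 16.2% and 68.5%, and 36.4% and 65.2% in Sca1-BCL6Δ libraries.

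Few promoters passed the test. Of 8105 placed windows (250 bases before to 50 after the start) with reads in both libraries, 0 were called higher in B cells (0.0%) and 2 lower (0.0247%). Over the 7218 genes with a value, each by its window with the most calls, the medians were 9.16% in HSPCs and 7.48% in B cells. Windows followed the class shift. The 66 of 95-100% in Sca1-BCL6Δ libraries had 86.5% (HSPCs) and 96.2% (B cells). For the 2487 of 0-5% the levels were 8.0% and 6.22%.

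Serhl, which encodes a serine hydrolase-like protein, had 19 of 38 methylated calls in HSPCs (50%, 34.8 to 65.2) and 1 of 91 in B cells (1.10%, 0.194 to 5.96; Fisher adjusted p = 0.00076). Of the 6 CpGs in capitals above, the one at position -247 from the start had 6 of 8 reads methylated in HSPCs and 0 of 22 in B cells. The CpG at position -80 had 5 of 8 and 1 of 24. Those at -230 and -217 had 4 of 8 each in HSPCs, and 0 of 22 and 0 of 21 in B cells. Those at -75 and -71 showed no difference, each with 0 of 3 reads in HSPCs and 0 of 1 in B cells. Fam120b, which encodes a coactivator of a nuclear receptor, had 31 of 52 (59.6%) and 13 of 83 (15.7%; Fisher adjusted p = 0.025). Its CpG at position -249 went the other way, with 1 of 12 in HSPCs and 7 of 18 in B cells, whereas that at position -167 had 4 of 7 and 0 of 13. In Sca1-BCL6Δ libraries the Fam120b window had 40.0% in HSPCs and 14.6% in B cells. Tiles that hold CpGs of these windows, chr15:82930001-82931000 and chr17:15533001-15534000, were among the 91 local lower tiles and share their reads. Leaving out windows with fewer than 12 covered CpGs left 1 of the 2 called, as did the first placement step alone.

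Genes with a role in blood had promoters on either side of the scale, and none passed the test. Of the B cell identity list only Irf4 and Irf8 had a placed window with reads. Irf4, a factor of activated B and plasma cells, had 40.0% of 20 calls in HSPCs and 18.3% of 60 in B cells (Fisher adjusted p = 0.89). Its levels in Sca1-BCL6Δ HSPCs and B cells were 4.55% and 1.64%. Irf8 had 0 of 14 and 0 of 15, which allows up to 21.4% and 20%. Of the stem and progenitor cell list 9 promoters had values, with medians of 4.69% and 7.38%, and 8 of 9 were under 20% in B cells. Gata2 had 4.69% and 11.5%, and of its CpGs in capitals the one at position -240 had 0 of 5 reads methylated in HSPCs and 5 of 14 in B cells. Meis1 had 25% and 19.2%, Runx1, a factor needed for blood stem cells to form, 18.1% and 6.50%, and Hlf, a stem cell leucine zipper factor, 15.2% and 5.78%. Flt3, a cytokine receptor of progenitors, had 0 of 38 calls, which allows up to 7.89%, and 9.90%. The Hoxa5 window stood apart at 91.5% and 94.0%. In Sca1-BCL6Δ HSPCs and B cells Gata2 had 15.8% and 6.45%, Meis1 12.5% and 27.8%, and Runx1 21.2% and 14.9%. Hlf had 3.57% and 4.44% there, Flt3 16.7% and 8.33%, and Hoxa5 96.8% and 100%.

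Germline promoters, which are methylated in somatic cells, were higher in B cells at 8 of the 9 genes with values, by unequal amounts and with none called. The median was 90.9% for HSPCs and 97.7% for B cells. Asz1 had 78.2% and 98.7%, Sohlh2 86.0% and 100%, Tex101 80.4% and 94.2%, and Slc25a31 93.8% and 100%. The gaps were narrower at Ddx4, a germ cell RNA helicase, with 92.5% and 95.3%, at Sycp1, a synaptonemal complex protein, with 94.8% and 97.7%, and at the 2 windows of Hormad1, a meiotic chromosome protein, with 90.3% and 92.9%, and 90.9% and 93.5%. Mael, which silences transposons in germ cells, had 100% (72 calls) and 98.7% (75 calls). At the imprinted Plagl1, which is methylated on one parental copy, the levels were 51.3% of 39 calls and 44.2% of 154. In Sca1-BCL6Δ HSPCs and B cells Plagl1 had 16.7% of 30 calls and 45.2% of 42. Zrsr1 had 54.5% of only 11 calls in wild-type HSPCs and 53.7% of 41 in wild-type B cells. Mcts2, another imprinted gene, had 78.0% and 98.3%, while the placed windows of Grb10 and Gnas had 7.78% and 6.12%, and 2.44% and 1.49%.

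Windows of the methylation enzymes were under 20% in B cells at 8 of 9 genes, the exception being Tet1. Tet1, a dioxygenase that oxidizes methylcytosine, had 2.38% of 42 calls in HSPCs and 26.5% of 34 in B cells (Fisher adjusted p = 0.69). Uhrf1 had 17.2% and 5.41%, Dnmt1 18.3% and 10.4%, and Mbd4, a glycosylase that repairs deaminated CpGs, 17.4% and 9.77%. Of the T and NK cell list, Gata3 had 17.2% and 3.81%, and the 2 Tcf7 windows had 30.6% and 12.5%, and 5.88% and 10.2%. The erythroid Tspan33 had 41.7% of 24 calls and 7.02% of 57, and the myeloid Cebpa 8.57% and 22.7%. None of these windows was called. In Sca1-BCL6Δ HSPCs and B cells Uhrf1 had 9.2% and 6.59%, Dnmt1 1.15% and 7.63%, and Mbd4 1.88% and 7.88%. Gata3 had 0.0% and 7.14% there, and the 2 Tcf7 windows 10.5% and 16.7%, and 1.02% and 12.9%. Tspan33 had 0.0% in both Sca1-BCL6Δ libraries, and Cebpa 5.26% and 7.27%.

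**Figure D5:**
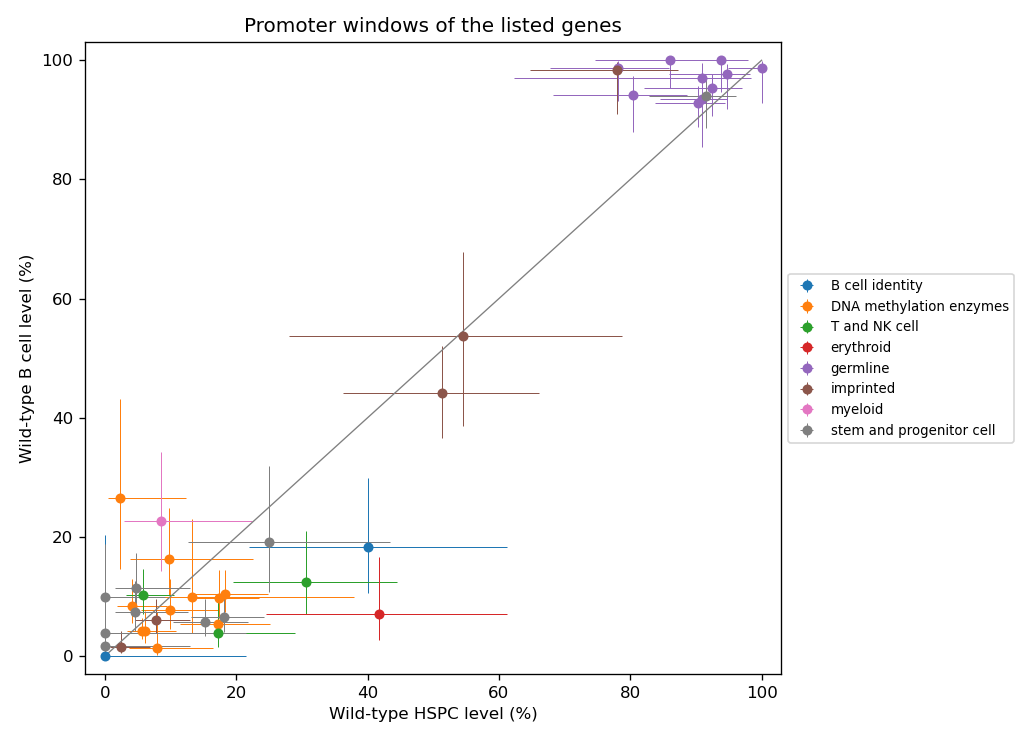
Methylation level of wild-type B cells (vertical axis, percent) against wild-type HSPCs (horizontal axis, percent) for each placed promoter window of the listed genes, with Wilson 95% intervals as bars and colours for the lists. Germline windows lie between 78.2% and 100% in HSPCs, most of them above the diagonal.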

How the data were processed

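Per the labels' protocols, the authors cut DNA with TaqI and MspI, selected fragments of 40 to 350 bp, amplified them for 18 PCR cycles and sequenced 43930708 to 60139994 reads per condition. Per the submitters' processing notes the build was mm9, and no aligner version is known here. The authors deposited, for each CpG, a pair of methylated and total read counts, and a score of mean methylation, which was not used. The deposited read tables gave the percent of methylated CpGs and the count of CpGs in each read, per the file headers. Chromosomes X and Y were left out.

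Counts were summed over 1 kb tiles as the report states, with Python 3.11.15, numpy 2.4.6, pandas 2.3.3 and scipy 1.17.1. For tests, CpGs were thinned to lie more than 50 bp apart, best covered first. For local differences, the methylated reads of B cells were moved by minus the class difference, limited to the range of 0 to 100%, before the Fisher exact test. The 28362 tiles with fewer than 10 reads in the pooled Sca1-BCL6Δ libraries had no class. The scripts were tested on simulated data. There the local test called 25.0% of 200 tiles moved by 50 points and 4.5% of 200 moved by 30 points.

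Without an mm9 genome, RefSeq promoters (GRCm38.p6, 32851 windows) were placed by matching the spacing of covered CpGs to the CpGs of the sequence. No coordinate was converted. A window with at least 8 covered CpGs and 1 fitting place was accepted on its gene's chromosome. Of 5710 such windows 5681 were on the right one, and all 5662 neighbouring pairs kept their order. A second step, added after the data were seen, placed 2986 windows with at least 5 covered CpGs between placed neighbours.

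The tiles named were up to 6 per direction with the largest local difference, up to 3 per direction with the largest difference among those called only before the shift was removed, and, per gene list, up to 4 promoters with the largest difference and 20 reads in both libraries, plus set stem and B cell genes. Other tiles and promoters are named as examples chosen after their values were seen. Members and lists were chosen with earlier results of these data known. Alternatives covered the coverage limit, the reads per tile, tile offset, equal coverage, the source of the level class, the form of the shift, the test, the difference called and the HSPC library.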

Additional observations from a re-analysis of the deposited data

Results flagged for a closer look

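At 5 of the tiles named above, among those with 10 calls in each Sca1-BCL6Δ library, the difference of B cells from HSPCs had opposite signs in the 2 genotypes, and the difference between genotypes was not tested. At chr10:124621001-124622000 it was 71.4 points in wild-type and -23.3 points in Sca1-BCL6Δ libraries. At chr2:136212001-136213000 it was -88.2 and 3.95 points. At chr9:44850001-44851000 it was -76.6 and 10 points. At the Ikzf1 tile, chr11:11596001-11597000, it was -39.5 and 7.66 points. The Sca1-BCL6Δ libraries had 10 to 19 calls at each of these 4 tiles. At the Gata2 tile, chr6:88140001-88141000, it was 28.8 and -10.2 points, with 155 and 168 calls in the Sca1-BCL6Δ libraries.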

How the results depend on the processing

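The CpG-poor 95-100% and dense 0-5% differences, the 2 classes recomputed under every class setting, kept their sign. With the Sca1-BCL6Δ HSPC library in place of the wild-type one, 3 of 21 classes changed sign, namely CpG-poor 20-40% (from -0.968 to 0.106 points), medium 5-20% (from -2.28 to 0.0303) and dense 40-60% (from 5.47 to -0.0243), with SEs of 0.29, 0.10 and 2.7 for the second values. The CpG-poor 95-100% difference was 13.9 points with 20 summed reads per tile, 14.7 with the level class from the Sca1-BCL6Δ B cell library, 16.7 with the class from the wild-type B cell library, and 1.63 with the Sca1-BCL6Δ HSPC library in place of the wild-type one (this setting, chosen after seeing the data, takes the class from Sca1-BCL6Δ B cells). The dense 0-5% difference was -1.84 with CpGs under 20 reads, -1.76 at equal coverage, -1.77 and -3.48 with those 2 class sources, and -0.104 with the other HSPC library. Tiles called higher and lower before the shift was removed numbered 4016 and 190 with CpGs under 20 reads, 783 and 41 at equal coverage, 25300 and 1541 with all summed CpGs tested, 3830 and 177 by a Cochran-Mantel-Haenszel test, and 115 and 42 with the Sca1-BCL6Δ HSPC library. Local higher and lower tiles numbered 9 and 25 with CpGs under 20 reads, 1 and 20 at equal coverage, 17 and 45 with the class from Sca1-BCL6Δ B cells, 9 and 20 with that from wild-type B cells, 10 and 23 with a straight-line shift, 978 and 1066 with all summed CpGs, 7 and 40 by Cochran-Mantel-Haenszel, and 74 and 33 with the Sca1-BCL6Δ HSPC library. With the Sca1-BCL6Δ HSPC library 108351 tiles were tested and 97831 were classed, against 181653 and 153291 in the main setting. That library had 5.5 reads per covered CpG, against 7.51 in the wild-type HSPC library. At equal coverage 178193 tiles were tested and 151393 were classed. With tiles offset by 500 bp there were 45 local higher tiles. At equal coverage 1 of 29 higher and 19 of 91 lower tiles were still called, and each call there rests on fewer reads. The cause of the other changes was not tested. The 12 tiles named for the largest local differences passed the threshold in 57 of 108 values. Their direction was the same in the 72 values from settings that recompute the difference, and the other 36 change only the test or threshold and so could not turn it. Promoters called lower numbered 1 with at least 12 covered CpGs and 1 with the first placement step alone. No paired analysis was possible because each condition was 1 pooled library. The median tile had 2 tested CpGs.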
